A study of Mus musculus with 15 samples.

Results

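The genes described here are cytochrome P450 genes of mouse liver, without Cyp4a genes and several genes of bile acid, steroid and sterol metabolism. They were taken by symbol (Cyp followed by a digit, without Cyp4a genes, Cyp7a1, Cyp7b1, Cyp8b1, Cyp17a1, Cyp27a1, Cyp39a1 and Cyp51) and kept where the detection p-value of a probe was under 0.01 on at least 3 of 15 arrays. Of 76 such genes with a probe, 36 passed, among 8976 genes tested, and 29 of the 36 were detected on all 15 arrays. The rule also admits Por, the reductase that passes electrons to many of these enzymes, but 0 probes in the probe table used were assigned to it. The detection filter favours a gene that is high in 1 group, so the 36 genes are those detected and not the whole family.

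RNA of whole liver from male C57BL/6 mice, labelled as 8 weeks old in every group, was read on Illumina arrays in 5 groups of 3 arrays. The T3 withdrawal group had 14 daily intraperitoneal injections of L-T3 (liothyronine, the active thyroid hormone) at 20 µg per 100 g body weight and was killed 10 days after the last. The chronic T3 group had the same 14 injections and was killed 6 h after the last. The baseline B group is the control of both. The acute T3 group was killed 6 h after 1 such injection, and the baseline A group is its control. No injection is given in the labels for either baseline, and the experiment was run as 2 subsets, the first with baseline A and the second with baseline B. The labels leave unsaid whether the 3 arrays of a group come from different animals, so the p-values measure the spread between these samples, which may be technical.

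Most cytochromes P450 of liver are heme enzymes of the endoplasmic reticulum that insert oxygen into drugs, toxins, steroids, fatty acids and retinoids. Hepatocytes hold most of them, many at their highest level around the central vein. They draw electrons from the reductase Por and from cytochrome b5, and their genes are driven by ligand-activated nuclear receptors such as CAR and PXR, by the dioxin receptor, and in rodents by sex-specific growth hormone pulses through STAT5b. T3 acts on liver genes through nuclear thyroid hormone receptors, which bind DNA with the retinoid X receptor.

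Mean signals of the arrays lay between 435 and 697, and the lowest 2 were chronic T3 replicates 2 and 3 (438 and 435). All 8 hepatocyte markers were detected, and their summed signal was 259723 to 278341 on chronic T3 arrays and 259264 to 265002 on baseline B arrays. Of the 8, Alb was lower after chronic T3 (-1.43) and 7 were not called, where 10.5% of all genes were lower. After acute T3 1 of the 8 was lower against baseline A and 7 were not called, where 0.646% of all genes were lower. With arrays scaled to a common median 0 of the 8 were called in this acute comparison. Of macrophage and Kupffer cell markers 13 of 13 tested were higher after chronic T3, where 12.4% of all genes were higher. Their sum was 15474 to 26303 on chronic T3 arrays and 5408 to 7907 on baseline B arrays. On T3 withdrawal arrays this sum was 5161 to 5809. The part of these markers in the results below was not tested. Of 5 bile duct markers 1 was tested (Sox9) and of 8 T and B cell markers 1 (Cd3g), and neither was called after chronic T3. In RNA of whole liver, fewer cells of a type and less RNA per cell cannot be told apart.

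P450 genes were mostly lower after chronic T3. Of the 36 genes 19 fell and 2 rose against baseline B at an adjusted p under 0.05 (limma's moderated test, Benjamini-Hochberg over 8976 genes). Over all genes 22.9% were called in this comparison, 10.5% lower and 12.4% higher. At an unadjusted p under 0.05 there were 23 P450 genes, against 35.2% of all genes, and in 22 the arrays of the 2 groups did not overlap, against 35.3% of all genes. The median log2 difference of the 36 genes was -0.66, with 29 of them below 0, beside a median of 0.03 over all genes tested. Among the 29 genes detected on all arrays 18 fell and 2 rose. The largest falls were those of Cyp2c23, Cyp2c29, Cyp2d9 and Cyp2c54, and the 2 rises were those of Cyp2a12 and Cyp2c70. After acute T3 none of the 36 genes was called, and 10 days after the last injection none differed from baseline B at this threshold.

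**Figure D1:**
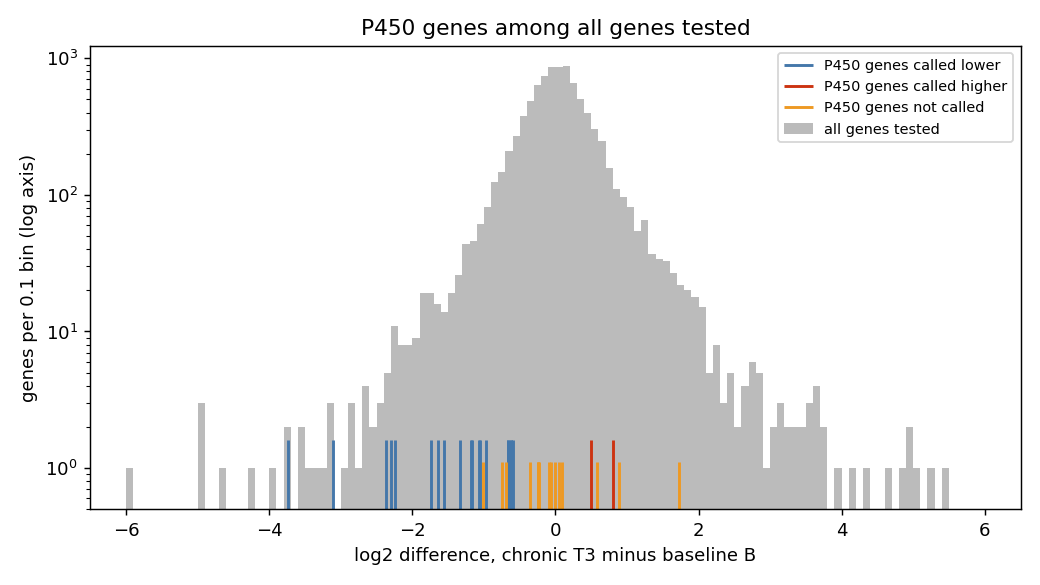
Histogram of the log2 difference between chronic T3 and baseline B for the 8976 genes tested (bins of 0.1, log axis of gene numbers), with a tick for each of the 36 P450 genes. Blue ticks (19 genes called lower) lie between -3.73 and -0.59, red ticks (2 genes called higher) at 0.49 and 0.80, and orange ticks are the genes not called.

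The Cyp2c enzymes oxidise drugs and, in mice, turn arachidonic acid into epoxides. Of 13 Cyp2c genes with a probe 8 were detected, all on chromosome 19. After chronic T3 6 of them fell and 1, Cyp2c70, rose. Along the chromosome the detected genes stand in the order Cyp2c55, Cyp2c29, Cyp2c67, Cyp2c37, Cyp2c54, Cyp2c50, Cyp2c70 and Cyp2c23 (RefSeq). In this order, which does not give distances, the gene that rose has a gene that fell on either side. The 250 bases before the transcription start of 5 of these genes (RefSeq, GRCm38.p6, chromosome 19) are shown to set the gene that rose beside genes that fell. They are chr19:39286835-39287084 on the plus strand for Cyp2c29, chr19:39649043-39649292 on the minus strand for Cyp2c67, chr19:39992174-39992423 and chr19:40089429-40089678 on the plus strand for Cyp2c37 and Cyp2c50, and chr19:40187287-40187536 on the minus strand for Cyp2c70. Capitals mark 3 motifs on either strand, which are AGGTCA, the hexamer bound by thyroid hormone and other nuclear receptors, CAAAGTCCA, a site of the hepatocyte factor HNF4 alpha, and TATAAA.
Cyp2c29: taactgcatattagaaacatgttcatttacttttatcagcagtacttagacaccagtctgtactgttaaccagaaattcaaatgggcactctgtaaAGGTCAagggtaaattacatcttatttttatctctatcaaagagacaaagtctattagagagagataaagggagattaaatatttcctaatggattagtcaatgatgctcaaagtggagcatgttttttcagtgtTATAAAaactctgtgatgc
Cyp2c67: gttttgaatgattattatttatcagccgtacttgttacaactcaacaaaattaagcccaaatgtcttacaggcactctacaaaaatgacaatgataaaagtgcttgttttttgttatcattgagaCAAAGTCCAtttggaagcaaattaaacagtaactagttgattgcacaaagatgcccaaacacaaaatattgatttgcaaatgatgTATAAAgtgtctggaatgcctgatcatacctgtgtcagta
Cyp2c37: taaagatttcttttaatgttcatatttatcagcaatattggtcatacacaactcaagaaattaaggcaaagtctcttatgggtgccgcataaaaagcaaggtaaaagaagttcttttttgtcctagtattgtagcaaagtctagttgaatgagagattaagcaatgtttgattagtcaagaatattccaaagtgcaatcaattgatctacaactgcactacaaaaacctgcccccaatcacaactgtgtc
Cyp2c50: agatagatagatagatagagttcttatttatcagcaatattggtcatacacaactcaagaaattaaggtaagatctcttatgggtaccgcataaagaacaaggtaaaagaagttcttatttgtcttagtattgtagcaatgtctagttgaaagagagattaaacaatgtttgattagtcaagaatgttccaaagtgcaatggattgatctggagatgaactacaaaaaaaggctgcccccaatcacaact
Cyp2c70: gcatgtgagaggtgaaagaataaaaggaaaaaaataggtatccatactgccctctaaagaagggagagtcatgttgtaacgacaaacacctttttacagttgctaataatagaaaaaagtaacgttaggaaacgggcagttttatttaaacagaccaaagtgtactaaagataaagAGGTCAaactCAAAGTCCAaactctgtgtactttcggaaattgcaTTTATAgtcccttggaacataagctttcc
AGGTCA is found in Cyp2c29, which fell, and in Cyp2c70, which rose, and 14.0% of all 32851 promoters of this length in the table hold it. CAAAGTCCA is found in Cyp2c67, which fell, and in Cyp2c70, and 0.384% of all promoters hold it. Cyp2c37 and Cyp2c50, whose falls were alike in size, were 84.3% identical over this window, and Cyp2c29 and Cyp2c70 51.2%. No promoter of Cyp2c23 or Cyp2c54 was in the table.

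Cyp2c23, an epoxygenase of arachidonic acid best known from kidney, had log2 signals of 10.40, 10.01 and 10.23 on chronic T3 arrays, against 14.04, 13.81 and 14.00 on baseline B arrays. All 3 chronic arrays were low and close together, and the groups lay far apart. The difference was -3.73 ± 0.15 (SE), a 13.3-fold fall with an adjusted p of 1.38e-08. Cyp2c29, an epoxygenase that CAR ligands induce, read 8.29, 7.99 and 7.27 on chronic T3 arrays, against 10.91, 10.85 and 11.09 on baseline B arrays. It was low on every chronic array and lowest on the third. The fall was 8.60-fold (difference -3.10 ± 0.21, adjusted p = 1.75e-06). Cyp2c67 read 11.79, 11.53 and 11.99 on chronic T3 arrays, against 13.65, 13.57 and 13.31 on baseline B arrays, and no chronic array came near a baseline one. It fell 3.34-fold (difference -1.74 ± 0.17, adjusted p = 2.03e-05), and its dimmer probe gave a difference of -3.67 ± 0.64.

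A second set of Cyp2c genes fell unevenly, with chronic T3 replicate 1 well below replicates 2 and 3. Cyp2c54 read 6.26, 8.56 and 9.89 on chronic T3 arrays, against 10.44, 10.84 and 10.31 on baseline B arrays, so that the third chronic array lay close under the baseline ones. Its difference was -2.29 ± 0.73 (adjusted p = 0.0393). The baseline A arrays, from the other subset, read 8.32, 9.35 and 7.28 for Cyp2c54, within the range of the chronic arrays. Cyp2c50 read 12.19, 13.57 and 13.74 on chronic T3 arrays, against 14.24, 14.06 and 14.40 on baseline B arrays, with a difference of -1.07 ± 0.35 (adjusted p = 0.0431). In Cyp2c50 replicate 1 was the chronic array farthest from the baseline. Cyp2c37, its neighbour in sequence, had a difference of -0.98 ± 0.29 (adjusted p = 0.0296). The calls of these 3 genes were lost without chronic T3 replicate 1: Cyp2c54 came to -1.31 (adjusted p = 0.137), Cyp2c50 to -0.58 (0.144) and Cyp2c37 to -0.58 (0.0938). Cyp2c55 ran the other way, with 9.02, 6.30 and 5.55 on chronic T3 arrays, against 8.58, 7.64 and 7.69 on baseline B arrays, and its difference of -1.01 ± 0.62 was not called. Leaving out chronic T3 replicate 1, Cyp2c55 was called lower (-2.05, adjusted p = 0.000718). Near-identical Cyp2c transcripts may share probe signal, and this was not tested.

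Cyp2c70, the enzyme that makes muricholic acids in mice, read 15.20, 15.09 and 15.14 on chronic T3 arrays, against 14.43, 14.70 and 14.81 on baseline B arrays. Every chronic array was above every baseline array, and the chronic arrays were close together. The rise was 1.41-fold (difference 0.49 ± 0.14, adjusted p = 0.0256). It lost its call without chronic T3 replicate 1 (0.46, adjusted p = 0.0674) and with arrays scaled to a common median in place of quantiles (adjusted p = 0.39).

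**Figure D2:**
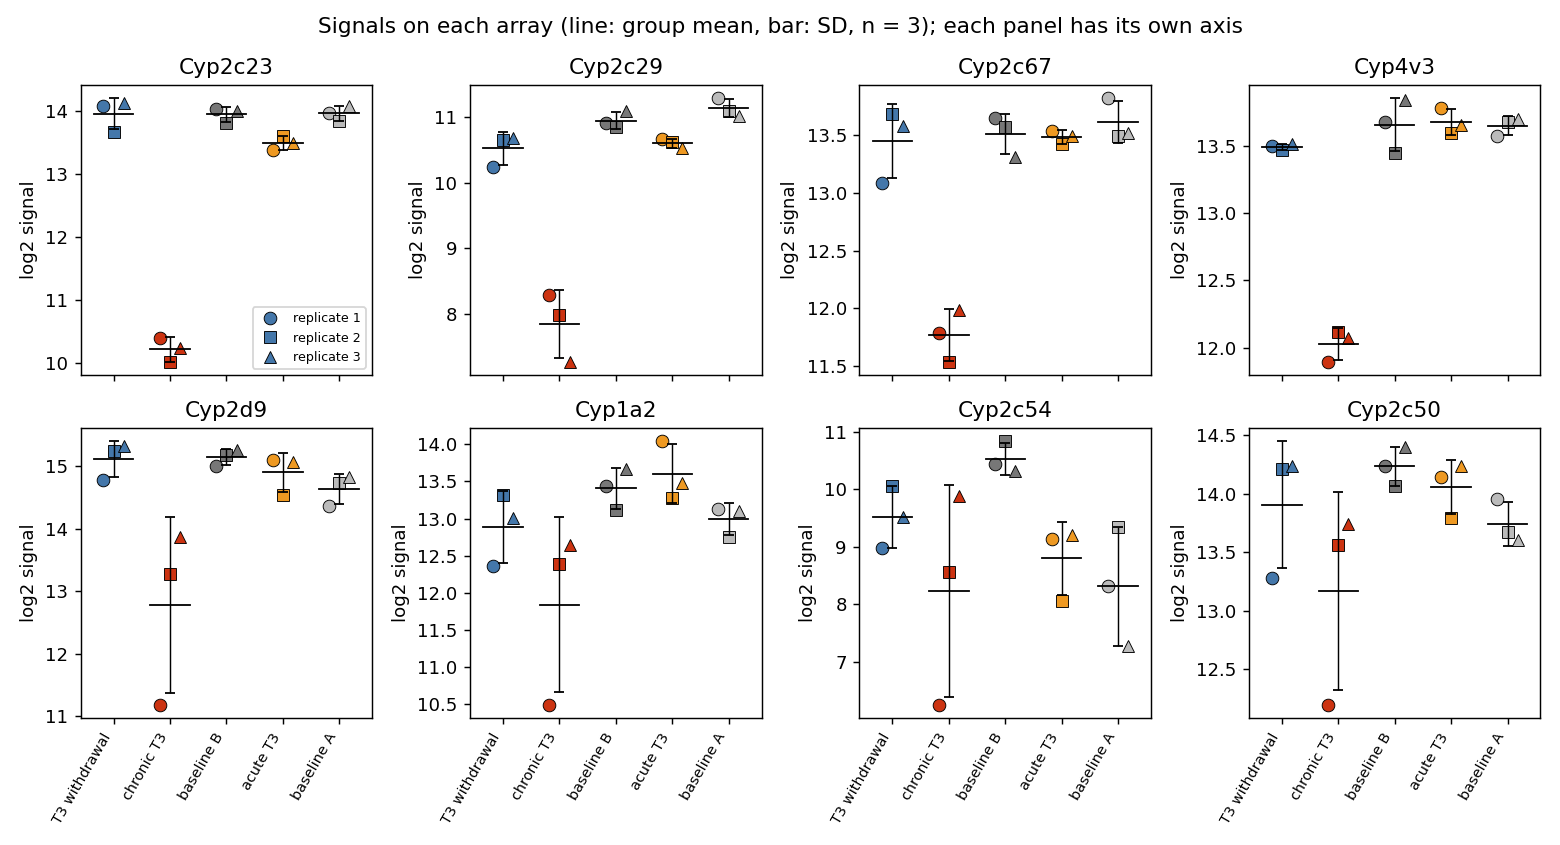
Normalised log2 signal on each array for 8 P450 genes, with group mean and SD (n = 3 arrays a group) and a marker shape for the replicate number, each panel on its own axis. Cyp2c23, Cyp2c29, Cyp2c67 and Cyp4v3 (upper row) are low on all 3 chronic T3 arrays, while for Cyp2d9, Cyp1a2, Cyp2c54 and Cyp2c50 (lower row) chronic T3 replicate 1 lies far below replicates 2 and 3.

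The Cyp2d genes, relatives of the human drug-metabolising CYP2D6, lie together on chromosome 15. Of 8 with a probe 6 were detected, 5 fell after chronic T3 and 0 rose. Cyp2d9, the testosterone 16 alpha-hydroxylase that is higher in males, read 11.18, 13.28 and 13.86 on chronic T3 arrays, against 15.01, 15.18 and 15.26 on baseline B arrays. All chronic arrays were low, but replicate 1 was by far the lowest. The fall was 5.18-fold (difference -2.37 ± 0.49, adjusted p = 0.0041). Without chronic T3 replicate 1 the difference was -1.58 and still called (adjusted p = 0.00089). Cyp2d13 read 7.44, 8.70 and 7.91 on chronic T3 arrays, against 8.89, 9.26 and 9.40 on baseline B arrays, a difference of -1.17 ± 0.30 (adjusted p = 0.0146). Its groups did not overlap, and the highest chronic array was close to the lowest baseline array. Cyp2d13 was not called without chronic T3 replicate 1 (-0.88, adjusted p = 0.0587). Cyp2d22 read 12.20, 12.08 and 12.03 on chronic T3 arrays, against 12.98, 13.14 and 13.36 on baseline B arrays. The chronic values were almost equal, and the difference was -1.06 ± 0.13 (adjusted p = 0.000156). Its dimmer probe, detected on 6 arrays, gave 0.37 ± 0.44, and the mean of both probes was not called (-0.34, adjusted p = 0.379).

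Cyp2d10 and Cyp2d26 fell by less, with differences of -0.62 ± 0.13 (adjusted p = 0.00565) and -0.59 ± 0.18 (adjusted p = 0.0321). The other 2 probes of Cyp2d26 gave -1.19 and -1.14, and the mean of its probes was not called. Cyp2d40 was not called (-0.74 ± 0.30, adjusted p = 0.0941). Cyp2d9 and Cyp2d10 are neighbours among the detected genes and were 82.8% identical over the 250 bases before their starts, while their falls were 5.18-fold and 1.53-fold; the falls of different genes were not tested against each other. Both windows are shown because they are alike (RefSeq, GRCm38.p6, chr15:82452127-82452376 on the plus strand for Cyp2d9 and chr15:82407195-82407444 on the minus strand for Cyp2d10), with TATAAA on either strand in capitals.
Cyp2d9: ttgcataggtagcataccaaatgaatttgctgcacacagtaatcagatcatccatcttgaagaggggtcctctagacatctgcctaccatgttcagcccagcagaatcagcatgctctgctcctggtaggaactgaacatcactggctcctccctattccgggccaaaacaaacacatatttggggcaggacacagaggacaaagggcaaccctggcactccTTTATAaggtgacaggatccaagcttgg
Cyp2d10: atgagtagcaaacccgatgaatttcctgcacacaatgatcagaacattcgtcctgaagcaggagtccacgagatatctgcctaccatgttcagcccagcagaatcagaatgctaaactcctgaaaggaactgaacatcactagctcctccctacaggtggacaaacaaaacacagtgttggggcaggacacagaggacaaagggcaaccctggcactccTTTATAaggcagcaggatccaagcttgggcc
TATAAA was found for 14 of the 29 P450 genes with a promoter in the table, and in 42.4% of their 33 entries, against 12.4% of all promoters. In 9 of the 14 genes its first base lay 28 to 31 bases before the start. Pairs of AGGTCA in a row with 4 bases or 1 base between them, and the palindromic HNF1 motif, were found in 0 of the 33 entries (in 0.0152%, 0.0335% and 0.00913% of all promoters), and TTCNNNGAA, the STAT motif, in 7.02% of all promoters and in Cyp4b1 and Cyp4f13. Both strands were searched. AGGTCA was found for 5 genes, Cyp2c29, Cyp2c70, Cyp2f2, Cyp3a11 and Cyp3a25.

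Cyp1a2, the caffeine-oxidising enzyme of hepatocytes around the central vein and a dioxin receptor target, read 10.50, 12.39 and 12.65 on chronic T3 arrays, against 13.44, 13.12 and 13.66 on baseline B arrays. All 3 chronic arrays were lower than any baseline array, and replicate 1 was far lower than the others. The fall was 2.95-fold (difference -1.56 ± 0.45, adjusted p = 0.0246), and a second probe gave -1.70 ± 0.51. Without chronic T3 replicate 1 the difference was -0.89 (adjusted p = 0.0499). The other Cyp1 genes, Cyp1a1 and Cyp1b1, were not detected on enough arrays. Cyp2e1, the ethanol- and paracetamol-oxidising enzyme of the same zone, read 14.18, 15.05 and 15.28 on chronic T3 arrays, against 15.59, 15.50 and 15.42 on baseline B arrays. The difference was -0.67 ± 0.21 (adjusted p = 0.0336), and without chronic T3 replicate 1 it was -0.34 and not called (adjusted p = 0.0522). The whole list of 10 pericentral markers includes both of these genes. After chronic T3 4 of the 10 were lower and 0 higher, where 10.5% of all genes were lower and 12.4% higher. The others called were Oat, ornithine aminotransferase (-2.41 ± 0.22, adjusted p = 9.77e-06), and the glutamate transporter Slc1a2 (-1.96 ± 0.35, adjusted p = 0.00186). The other 6 were not called, and the median of the 10 was -0.07. The list, with the bright Cyp2e1 and Cyp1a2 in it, summed to 30984 to 61665 on chronic T3 arrays and 79259 to 95812 on baseline B arrays. Cyp2f2, a bright gene of periportal hepatocytes, read 14.75, 14.62 and 14.30 on chronic T3 arrays, against 14.64, 14.59 and 14.64 on baseline B arrays, and was not called (-0.07 ± 0.13). Of 10 periportal markers, which include Cyp2f2, 7 were tested. After chronic T3 1 of the 7 was higher and 1 lower, beside 12.4% of all genes higher and 10.5% lower. The median of the 7 was -0.10, with differences from -4.99 to 0.69.

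Cyp3a11, the main mouse counterpart of human CYP3A4 and a PXR target, read 13.46, 12.88 and 13.54 on chronic T3 arrays, against 14.93, 14.25 and 14.69 on baseline B arrays. The groups did not overlap, and the fall was 2.51-fold (difference -1.33 ± 0.30, adjusted p = 0.00736). Cyp3a13 (-0.25 ± 0.16) and Cyp3a25 (-0.24 ± 0.24) were not called. Cyp4v3, the mouse form of a fatty acid omega-hydroxylase mutated in a human retinal dystrophy, read 11.89, 12.11 and 12.07 on chronic T3 arrays, against 13.68, 13.45 and 13.85 on baseline B arrays. It was among the most uniform falls, at 3.11-fold (difference -1.64 ± 0.12, adjusted p = 2.17e-06). Of the Cyp4f genes, whose enzymes hydroxylate leukotrienes and other fatty acids at the omega end, Cyp4f14 (-0.66 ± 0.15, adjusted p = 0.00788) and Cyp4f15 (-0.63 ± 0.18, adjusted p = 0.0242) fell. Cyp4f13 (-0.35 ± 0.16) and Cyp4f16 (0.58 ± 0.42) were not called, and neither were Cyp4b1 (-0.01 ± 0.19) and its pseudogene relative Cyp4b1-ps2 (-0.23 ± 0.26). Without chronic T3 replicate 1 Cyp4f15 was not called (-0.61, adjusted p = 0.0596).

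Cyp2u1, a hydroxylase of long-chain fatty acids, read 5.49, 4.81 and 5.16 on chronic T3 arrays, where it was not detected, against 7.78, 7.14 and 7.26 on baseline B arrays. It was at least 2.39-fold lower, the bound set by the lowest detected signal of the chronic arrays, and its fitted difference was -2.24 ± 0.33 (adjusted p = 0.00053). Cyp2j9, of a family that oxidises arachidonic acid, read 7.08, 8.02 and 8.38 on chronic T3 arrays, against 8.89 to 9.12 on the 3 baseline B arrays. The difference was -1.18 ± 0.36 (adjusted p = 0.0314), and without chronic T3 replicate 1 it was not called (-0.81, adjusted p = 0.124).

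Cyp2a12, which hydroxylates secondary bile acids in mice, was the other gene that rose. It read 14.32, 14.40 and 14.21 on chronic T3 arrays, against 13.78, 13.36 and 13.38 on baseline B arrays, with all chronic arrays above the baseline ones. The rise was 1.75-fold (difference 0.80 ± 0.13, adjusted p = 0.000948), and with arrays scaled to a common median it was not called (adjusted p = 0.0705). Cyp2a5, the coumarin hydroxylase, was not called by its brightest probe (-0.10 ± 0.18). Its 5 probes disagreed: the next brightest gave 0.38 ± 0.12 (adjusted p = 0.0427 in limma's fit over probes), and the other 3 gave -0.45, -0.52 and -0.34 and were not called. Cyp2a4, a steroid hydroxylase higher in females, read 10.91, 6.61 and 5.58 on chronic T3 arrays, against 5.96, 6.25 and 5.70 on baseline B arrays. A single chronic array, replicate 1, stood above the rest, and the difference of 1.73 ± 1.16 was not called. Cyp2b10, the classical CAR target and also higher in females, showed the same array above the others (8.05, 6.04 and 4.89 on chronic T3 arrays, against 6.54, 5.43 and 6.74 on baseline B arrays) and was not called (0.09 ± 0.68). Cyp2a4 and Cyp2a5 are 97.6% identical over the 250 bases before their starts, and how far their probes share signal was not tested. Cyp2g1, an olfactory P450 (0.89 ± 0.35), Cyp26a1, which degrades retinoic acid (-0.69 ± 0.55), and the orphan Cyp20a1 (0.05 ± 0.35) were not called.

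**Figure D3:**
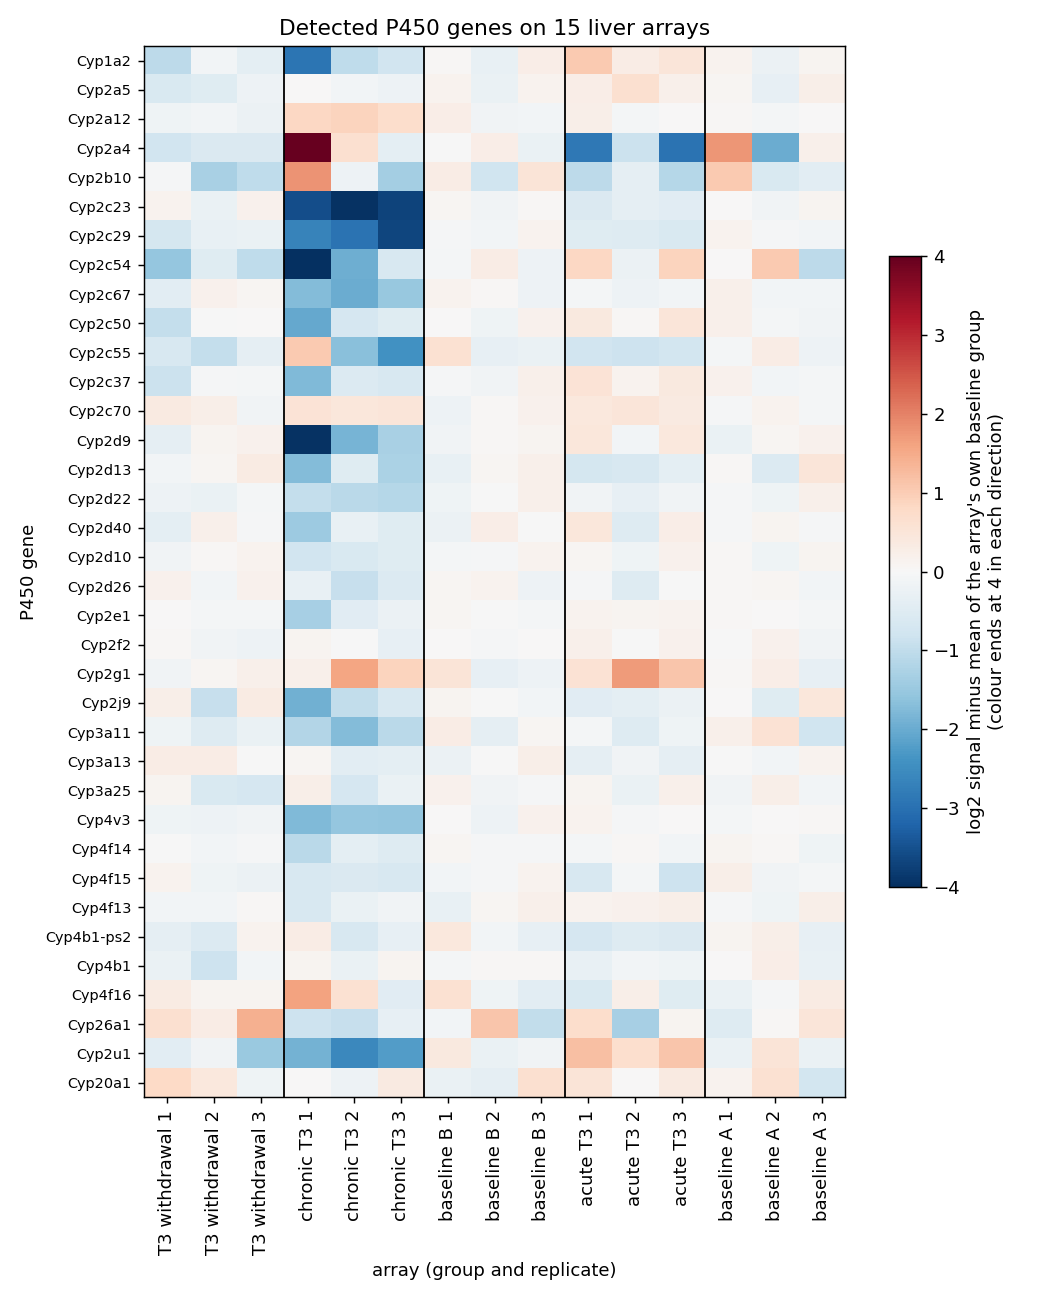
Log2 signal of the 36 detected P450 genes (rows, by family) on the 15 arrays (columns), each minus the mean of the array's own baseline group, with colours ending at 4 in each direction. The chronic T3 columns hold most of the blue, and chronic T3 replicate 1 differs from replicates 2 and 3 for Cyp1a2, Cyp2a4, Cyp2c54 and Cyp2d9.

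The 19 falls thus differed in evenness over the chronic T3 arrays. In 6 of them replicate 1 was at least 1 log2 unit below the mean of replicates 2 and 3, which held for 1.43% of all genes tested, and in 8 it was within 0.5, which held for 78.9% of all genes. Without replicate 1 13 of the 36 genes fell and 2 rose, but these were not all the same genes. Among the falls was Cyp2c55, not called with all arrays, while Cyp2c37, Cyp2c50, Cyp2c54, Cyp2d13, Cyp2e1, Cyp2j9 and Cyp4f15 lost their call. Cyp2c70 also lost its call, so the 2 rises were not the same 2 genes. With replicate 1 as the only chronic array, which leaves out the 2 dim arrays, 17 fell and 3 rose; there the spread comes from the other groups. Cyp2c23, Cyp2c29, Cyp2c67 and Cyp4v3 kept their call in both cases. With replicate 1 alone the differences were -3.97 for Cyp2d9, -2.91 for Cyp1a2, -4.27 for Cyp2c54, -2.04 for Cyp2c50, -1.76 for Cyp2c37, -1.93 for Cyp2j9, -1.32 for Cyp2e1 and -1.07 for Cyp4f14, each over 1.5 times the value from all arrays. Cyp2d26 (-0.29), Cyp3a11 (-1.16, adjusted p = 0.0901), Cyp4f15 (-0.66, adjusted p = 0.128) and Cyp2c70 (0.55, adjusted p = 0.109) were not called there, and Cyp2a4 (4.94) and Cyp4f16 (1.61) were called higher and Cyp2d40 (-1.45) lower. Left-out baseline B arrays also mattered: without replicate 3 of baseline B 13 of the 36 genes were called. With single arrays left out 1376 to 1995 of all genes were called, beside 2052 with all arrays. Over the 6 arrays left out singly, Cyp1a2, Cyp2c37, Cyp2c50, Cyp2c54, Cyp2c70, Cyp2d13, Cyp2d26, Cyp2e1, Cyp2j9 and Cyp4f15 lost their call at least once. What sets replicate 1 apart was not tested.

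Genes with other roles in P450 chemistry were read in the same comparison, chronic T3 against baseline B, where 12.4% of all genes were higher and 10.5% lower. Of 6 measured electron partners 4 fell and 0 rose, with the P450-binding heme proteins Pgrmc1 (-0.76 ± 0.12, adjusted p = 0.000726) and Pgrmc2 (-0.68 ± 0.17, adjusted p = 0.0116) and the cytochromes b5 Cyb5a (-0.51 ± 0.13, adjusted p = 0.0141) and Cyb5b (-0.50 ± 0.15, adjusted p = 0.03). The median of these 6 genes was -0.50, and with median scaling 3 fell and 1 rose. Of 8 heme synthesis genes 2 fell, the erythroid enzyme Alas2 (-1.74 ± 0.31, adjusted p = 0.00173) and ferrochelatase Fech (-1.35 ± 0.40, adjusted p = 0.0286), and 0 rose. With median scaling 1 of the 8 fell, and their median as reported was -0.19. Of 8 genes of heme breakdown and handling the heme oxygenase Hmox1 (1.62 ± 0.41, adjusted p = 0.0129) and the heme exporter Flvcr1 (1.04 ± 0.13, adjusted p = 0.000171) rose, and Blvrb (-0.84 ± 0.17, adjusted p = 0.0045) and Flvcr2 (-1.68 ± 0.48, adjusted p = 0.024) fell. With median scaling 2 rose and 1 fell. Hmox1 is also abundant in macrophages, whose markers rose in the same samples, and their part in its rise was not tested.

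Other enzymes that oxidise or hydrolyse foreign compounds were also mostly lower after chronic T3. Of 15 measured carboxylesterases, epoxide hydrolases, flavin monooxygenases and aldehyde oxidases 9 fell and 0 rose, with a median of -0.89. The carboxylesterases Ces1f (-3.25 ± 0.20, adjusted p = 5.67e-07), Ces1g (-2.25 ± 0.16, adjusted p = 2.6e-06) and Ces1e (-1.96 ± 0.20, adjusted p = 3.2e-05) and the epoxide hydrolase Ephx2 (-1.23 ± 0.15, adjusted p = 0.000129) had the smallest p-values. Of 17 measured receptors and partner factors 4 rose and 3 fell, beside 12.4% of all genes higher and 10.5% lower, and with median scaling 2 rose and 1 fell. The median of the 17 was -0.23. Stat5a (1.63 ± 0.21, adjusted p = 0.000168), the repressor Cux2 (2.50 ± 0.48, adjusted p = 0.00283) and Cebpb (0.87 ± 0.21, adjusted p = 0.00923) were among those that rose, and Cux2, known as a gene higher in female liver, was at least 2.53-fold higher since it was not detected on baseline B arrays. Ppara, the fatty acid receptor, fell (-1.80 ± 0.26, adjusted p = 0.000483). Outside the 4 smallest p-values the PXR gene Nr1i2 (-0.55 ± 0.16, adjusted p = 0.0251) and Cebpa (-1.05 ± 0.31, adjusted p = 0.0286) fell, and Nr1h3 (0.60 ± 0.17, adjusted p = 0.0261) rose. The CAR gene Nr1i3 was not called.

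Of 10 P450 genes that are higher in female mouse liver 8 had a probe and 2 were detected. These were Cyp2a4, detected on 6 arrays, and Cyp2b10, detected on 7, and 0 of them were called after chronic T3. Both male-biased P450 genes measured, Cyp2d9 and Cyp2u1, fell after chronic T3, where 10.5% of all genes were lower and 12.4% higher. Chronic T3 replicate 1 was the lowest chronic array for Cyp2d9 and the highest for Cyp2a4 and Cyp2b10. Each list rests on 2 measured genes, and a link to sex bias was not tested.

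10 days after the last injection none of the P450 genes was called against baseline B. The count was 0 of 36 genes, where 0.0111% of all genes were, and 2 genes, Cyp2a5 (-0.43 ± 0.18) and Cyp4b1 (-0.41 ± 0.19), had an unadjusted p under 0.05 (7.38% of all genes). In 5 genes the arrays of the groups did not overlap (14.5% of all genes), which were Cyp2a4, Cyp2c29, Cyp2c54, Cyp2c55 and Cyp4b1. The median of the 36 genes was -0.11, with 26 of them below 0, beside a median of 0.03 over all genes, of which 44.1% were below 0. The differences had a range of -1.01 (Cyp2c54) to 0.78 (Cyp26a1). Cyp2c23 read 14.08, 13.68 and 14.13 on T3 withdrawal arrays, on both sides of the baseline B values, and so did Cyp2d9 with 14.78, 15.25 and 15.32. Cyp2c29 read 10.24, 10.66 and 10.68 on T3 withdrawal arrays, with each of them below all 3 baseline B arrays, and its difference of -0.42 ± 0.21 was not called (adjusted p = 0.718). A p that misses the threshold with 3 arrays a group does not show that a gene had returned in full.

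Against chronic T3 the T3 withdrawal arrays were higher for 12 of 36 genes and lower for 1, where 17.1% of all genes were called, 8.82% higher and 8.31% lower. At an unadjusted p under 0.05 there were 23 P450 genes, against 30.3% of all genes, and in 20 the arrays did not overlap, against 32.9%. This comparison uses the same chronic T3 arrays as the one above. Cyp2c23 differed by 3.75 ± 0.15 (adjusted p = 1.33e-08), Cyp2c29 by 2.68 ± 0.21 (adjusted p = 7.36e-06) and Cyp2d9 by 2.34 ± 0.49 (adjusted p = 0.00566). Cyp2c67 read 13.08, 13.68 and 13.58 on T3 withdrawal arrays and was 1.68 ± 0.17 higher (adjusted p = 3.26e-05). Cyp4v3 read 13.50, 13.47 and 13.52 there and was 1.47 ± 0.12 higher (adjusted p = 7.36e-06). In these 5 genes no T3 withdrawal array overlapped a chronic T3 array. Without chronic T3 replicate 1 Cyp2d9 came to 1.54 and without both dim chronic T3 arrays to 3.93, called in both cases. Cyp2u1 read 6.97, 7.25 and 5.91 on T3 withdrawal arrays, was detected on 2 of the 3 and was at least 1.49-fold higher (fitted difference 1.56 ± 0.33, adjusted p = 0.00655), a call lost without both dim arrays (1.22, adjusted p = 0.129). Cyp2d13 read 9.07, 9.25 and 9.51 on T3 withdrawal arrays and was 1.26 ± 0.30 higher (adjusted p = 0.0119). Cyp3a11 read 14.46, 14.12 and 14.37 there and was 1.02 ± 0.30 higher (adjusted p = 0.0337). Its call was lost when single T3 withdrawal or chronic T3 arrays were left out, other than chronic T3 replicate 3. Cyp2d22 (0.88 ± 0.13), Cyp2d26 (0.67 ± 0.18), Cyp2d10 (0.63 ± 0.13) and Cyp4f14 (0.61 ± 0.15) completed the genes that were higher. Cyp2d26 lost its call with the mean of its probes, and without chronic T3 replicate 2 or T3 withdrawal replicate 1 or 3. The other probes of Cyp2d26 gave 0.68 ± 0.53 and 0.76 ± 0.56 and were not called in limma's fit over probes. Cyp2d22 was not called with the mean of its probes (0.43, adjusted p = 0.295), and Cyp4f14 came to 0.40 without chronic T3 replicate 1, to 1.01 without both dim arrays, and lost its call without T3 withdrawal replicate 1. Cyp2a12 was the gene that was lower (-0.98 ± 0.13, adjusted p = 0.000293), with 13.33, 13.40 and 13.27 on T3 withdrawal arrays. Cyp2a5 was not called by its brightest probe (-0.33 ± 0.18), while its next brightest probe was lower (-0.79 ± 0.12, adjusted p = 0.000892 in limma's fit over probes).

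Several genes whose chronic values spread widely were not called in this comparison. Cyp1a2 read 12.36 to 13.31 on the 3 T3 withdrawal arrays and differed by 1.05 ± 0.45 from chronic T3 (adjusted p = 0.132). Cyp2c54 read 8.98, 10.05 and 9.52 on T3 withdrawal arrays and differed by 1.28 ± 0.73 (adjusted p = 0.267). Cyp2c50 read 13.28, 14.21 and 14.24 on T3 withdrawal arrays and differed by 0.74 ± 0.35 (adjusted p = 0.172). For Cyp2c50, Cyp2c54 and Cyp1a2 the lowest withdrawal array lay inside the range of the chronic arrays. With arrays scaled to a common median 22 genes were higher and 0 lower, while that scaling moved the median of all genes in this comparison to 0.36.

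**Figure D4:**
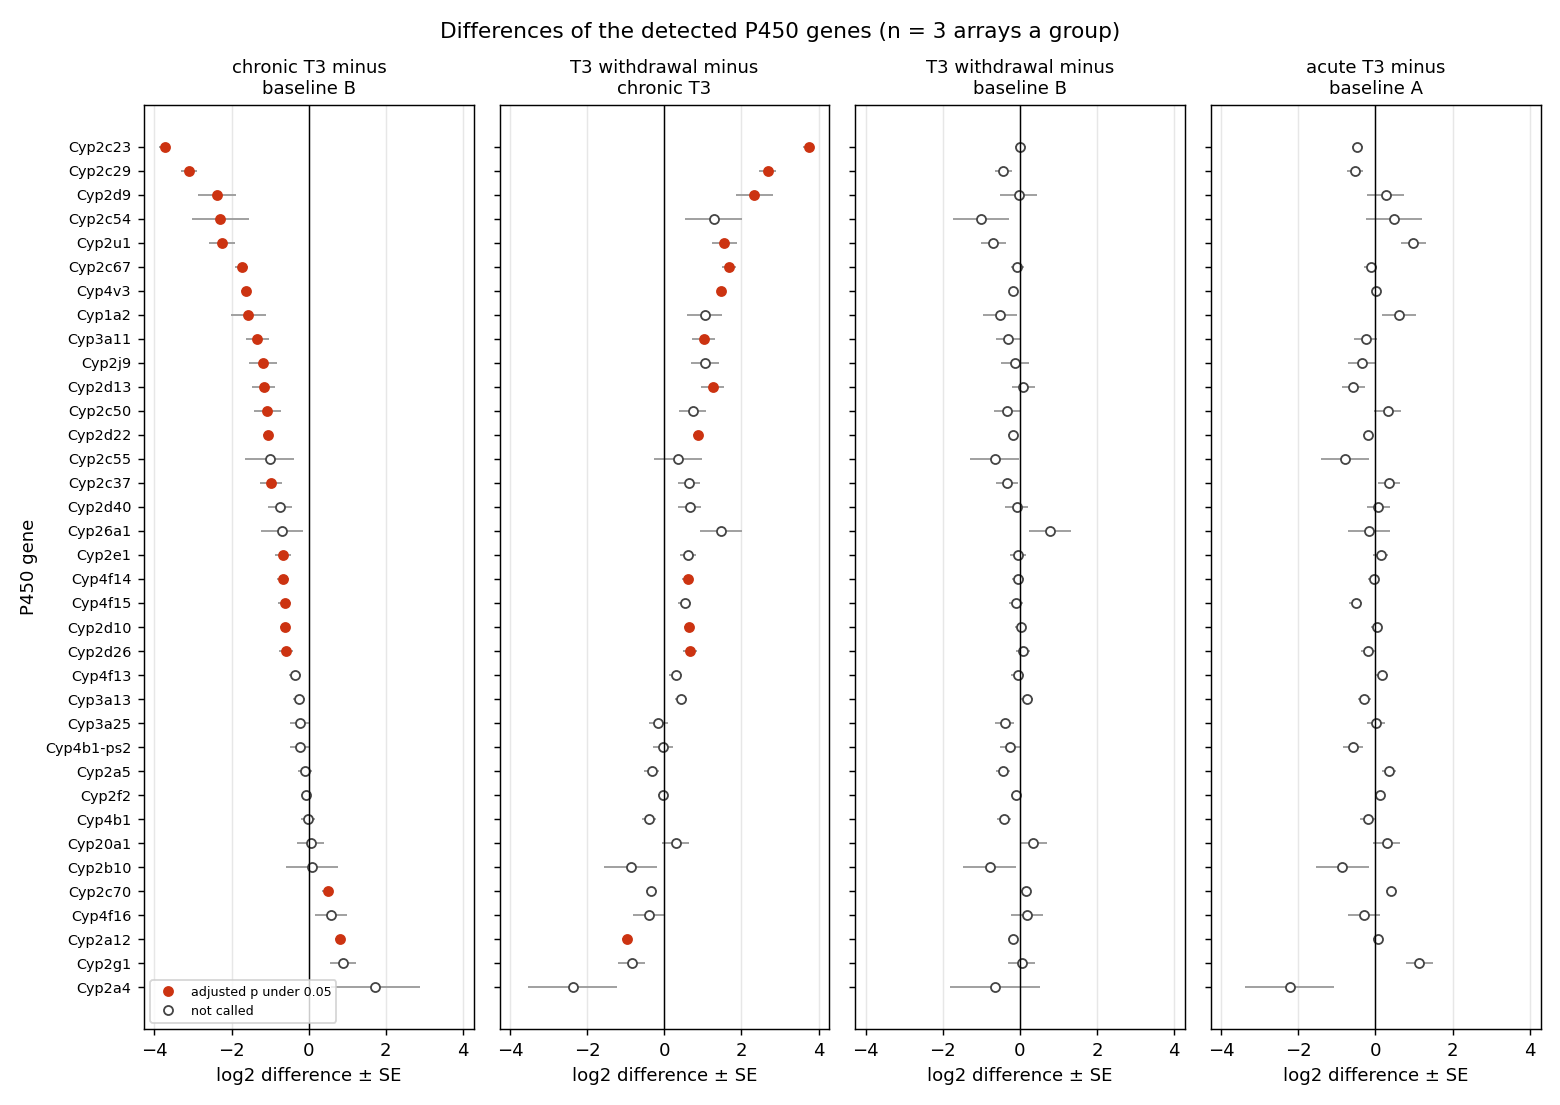
Log2 difference with its SE (n = 3 arrays a group) for each of the 36 P450 genes, in order of the chronic T3 difference, in 4 comparisons. Filled red points passed an adjusted p under 0.05, which 21 genes did for chronic T3 against baseline B, 13 for T3 withdrawal against chronic T3 and 0 for T3 withdrawal against baseline B and for acute T3 against baseline A.

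6 h after a single injection the same genes were not called in any direction. In acute T3 against baseline A 0 of 36 genes were called, where 2.12% of all genes were, 1.47% higher and 0.646% lower. In 10 genes the arrays of the groups did not overlap (21.9% of all genes). At an unadjusted p under 0.05 there were 7 genes (19.4%, against 14.7% of all genes). They were Cyp4b1-ps2 (-0.59 ± 0.26), Cyp2c29 (-0.53 ± 0.21), Cyp4f15 (-0.52 ± 0.18), Cyp2c23 (-0.47 ± 0.15), Cyp2c70 (0.41 ± 0.14), Cyp2u1 (0.98 ± 0.33) and Cyp2g1 (1.14 ± 0.35). The median of the 36 genes was -0.02. Cyp2c23 read 13.38, 13.61 and 13.50 on acute T3 arrays, against 13.97, 13.84 and 14.08 on baseline A arrays, and Cyp2c29 read 10.67, 10.62 and 10.53 on acute T3 arrays, against 11.29, 11.10 and 11.02 on baseline A arrays. In both genes every acute array was below every baseline A array, with adjusted p of 0.137 and 0.248. Cyp2u1 read 8.17, 7.62 and 8.06 on acute T3 arrays, against 6.70, 7.48 and 6.71 on baseline A arrays (adjusted p = 0.169). Of the receptors and partner factors, Stat5a (1.37 ± 0.21, adjusted p = 0.00518) and Cebpb (1.15 ± 0.21, adjusted p = 0.0134) already rose in the acute comparison, and Nr1i2 was lower at the edge of the threshold (-0.66 ± 0.16). Of the electron partners, heme genes and other oxidising enzymes 0 were called in this comparison.

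The chronic difference was set against the acute difference in the same fit. It was called for 8 of 36 genes, 7 of them lower and 1 higher, where 7.14% of all genes were called, 3.32% lower and 3.82% higher. At an unadjusted p under 0.05 there were 18 P450 genes, against 23.2% of all genes. The 7 were Cyp2c23 (-3.27 ± 0.21, adjusted p = 3.03e-06), Cyp2u1 (-3.23 ± 0.47, adjusted p = 0.00207), Cyp2d9 (-2.64 ± 0.69, adjusted p = 0.0358), Cyp2c29 (-2.57 ± 0.30, adjusted p = 0.000409), Cyp4v3 (-1.66 ± 0.16, adjusted p = 0.000154), Cyp2c67 (-1.61 ± 0.24, adjusted p = 0.00248) and Cyp2d22 (-0.87 ± 0.19, adjusted p = 0.0162), and Cyp2a12 was higher (0.75 ± 0.18, adjusted p = 0.0286). On acute T3 arrays Cyp2d9 read 15.10, 14.54 and 15.06, against 14.37, 14.73 and 14.82 on baseline A arrays. Cyp4v3 read 13.78, 13.60 and 13.66 on acute T3 arrays, against 13.57, 13.68 and 13.70 on baseline A arrays. Cyp2c67 read 13.54, 13.42 and 13.49 on acute T3 arrays, against 13.82, 13.50 and 13.52 on baseline A arrays. In these 3 genes the acute T3 and baseline A values lay close together. Cyp2d22 was not called with the mean of its probes (-0.17, adjusted p = 0.832) or without both dim chronic T3 arrays (-0.77, adjusted p = 0.0692). Leaving out any baseline A or baseline B array, or acute T3 replicate 1 or 3, lost the call of Cyp2d9, and Cyp2a12 lost its call with each of 7 arrays left out singly. With single arrays left out the count was 6 to 14 genes, with 14 without chronic T3 replicate 3. Over all genes it was 311 to 916, beside 641 with all arrays. Duration of treatment and the subset of the experiment cannot be told apart in this comparison, because each treatment was set against the baseline of its own subset.

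The 2 baselines themselves differed by an adjusted p under 0.05 for 0 of 36 genes, where 8.71% of all genes were called, 2.73% higher and 5.98% lower. In 12 genes the arrays did not overlap (29.9% of all genes). At an unadjusted p under 0.05 there were 4 genes (11.1%, against 29.8% of all genes). Cyp2c54 was higher by 2.21 ± 0.73 (10.44, 10.84 and 10.31 in baseline B, against 8.32, 9.35 and 7.28 in baseline A, adjusted p = 0.0729) and Cyp2a5 by 0.55 ± 0.18. Of the other Cyp2a5 probes 3 were called higher in baseline B in limma's fit over probes, with 1.75 ± 0.23 (adjusted p = 0.00175), 1.78 ± 0.26 (adjusted p = 0.00261) and 0.46 ± 0.12 (adjusted p = 0.0337), so its result depends on the probe. Cyp4b1 differed by 0.41 ± 0.19 and Cyp2a4 by -2.57 ± 1.16. Cyp2a4 was not detected on baseline B arrays and read 10.32, 6.56 and 8.76 on baseline A arrays, so its level spread widely among untreated samples. Cyp2c54 was called with no background correction, with normexp, with median scaling, with the authors' values and without baseline A replicate 2.

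The 40 genes that did not pass the filter were detected on at most 2 arrays each. They were the steroid and sterol genes Cyp11a1, Cyp11b1, Cyp11b2, Cyp21a1 and Cyp46a1, the vitamin D genes Cyp24a1, Cyp27b1 and Cyp2r1, and Cyp1a1, Cyp1b1, Cyp26b1, Cyp2b9, Cyp2b13, Cyp2b19, Cyp2b23, Cyp2c38, Cyp2c39, Cyp2c40, Cyp2c65, Cyp2c68, Cyp2d12, Cyp2d34, Cyp2j5, Cyp2j6, Cyp2j8, Cyp2j11, Cyp2j12, Cyp2j13, Cyp2s1, Cyp2t4, Cyp3a16, Cyp3a41b, Cyp3a44, Cyp3a57, Cyp4f17, Cyp4f18, Cyp4f39, Cyp4f40, Cyp4f41-ps and Cyp4x1. A gene at this level on the array has no measured direction here.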

How the data were processed

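Total RNA of mouse liver was labelled with biotin and read on Illumina arrays of 45281 probes. The deposited table gives, per the file headers, an intensity and a detection p-value for each probe and array, not normalized. A second deposited table holds the authors' quantile-normalized intensity. Partek 6.6 is named in the submitters' processing notes without a role; which scanner program was used is not given in the sources used here.

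Function neqc of limma 3.58.1 (R 4.3.3, offset 16) subtracted the background estimated through the detection p-values, made the arrays' quantiles equal and took log2. Because the deposited intensity has no depth, precision rests on 3 arrays a group. 15361 probes passed detection (p under 0.01 on at least 3 of 15 arrays); 34885 probes had 1 gene, 18 several and 10378 none. For a gene with several detected probes the brightest one was used. All arrays entered 1 limma fit of group means (10 residual, 13.1 moderated degrees of freedom), with 2-sided tests adjusted by Benjamini-Hochberg over 8976 genes. A permutation test of 3 against 3 cannot go below p = 0.1. The pipeline was tested on simulated data. Promoters are the 250 bases before the start in RefSeq's GRCm38.p6 table, aligned globally with Biopython 1.88; 29 of 36 genes had an entry.

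The members and gene lists were chosen with earlier results of these data known. Every detected member is named, with values on each array where a call reached 1 on the log2 scale; up to 4 genes of other lists are named, and Nr1i2, Cebpa and Nr1h3 were added after their values were seen. Same-numbered arrays of the baselines deviated together (residual r 0.126, 0.25 and 0.195), while every other comparison had a pair at or below 0.00529. The labels pair no arrays, and these values do not show that any were paired. The fit reported held no replicate block, which was run as an alternative. Alternatives covered background, scaling, filter, probe summary, moderation, weights, replicate block, threshold, samples in the fit and single arrays left out; leaving out both dim chronic T3 arrays together was chosen after seeing the data.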

Additional observations from a re-analysis of the deposited data

Results flagged for a closer look

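The difference between chronic and acute T3, each against its own baseline, passed the threshold for 8 of 36 P450 genes (limma's test of the difference in the fit, adjusted p under 0.05), and these are the results marked for a second look. Cyp2c23 differed by -3.27, from -3.73 after chronic and -0.47 after acute T3. Cyp2u1 differed by -3.23, from -2.24 and 0.98, opposite in sign although the acute value was not called. Cyp2d9 differed by -2.64, from -2.37 and 0.26. Cyp2c29 differed by -2.57, from -3.10 and -0.53. Cyp4v3 differed by -1.66, from -1.64 and 0.03, and Cyp2c67 by -1.61, from -1.74 and -0.13. Cyp2d22 differed by -0.87, from -1.06 and -0.19. With the mean of its probes Cyp2d22 came to -0.17 (adjusted p = 0.832), and it was not called without both dim chronic T3 arrays (-0.77, adjusted p = 0.0692). Cyp2a12 was the gene with a higher chronic effect, by 0.75, from 0.80 and 0.06. Of 25 alternative runs for each gene, Cyp2d9 lost its call in 12, Cyp2a12 in 12 and Cyp2d22 in 3. The 2 treatments belong to different subsets of the experiment, so duration and subset cannot be told apart.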

How the results depend on the processing

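Of 846 alternative values for the 42 called P450 differences, 718 stayed called in the same direction, 128 lost the call and 0 reversed. Cyp2c23, Cyp2c29, Cyp2c67 and Cyp4v3 kept the call in each alternative run, for chronic T3, T3 withdrawal against chronic T3 and the difference of effects. P450 genes called after chronic T3 were 21 in the fit reported, 11 at an adjusted p under 0.01, 10 with only the groups compared in the fit, and 13 to 21 with single arrays left out. T3 withdrawal against chronic T3 gave 22 with median scaling, 21 without both dim chronic T3 arrays, and 10 to 17 with single arrays left out. The difference gave 5 at 0.01, 16 without both dim arrays and 6 to 14 with single arrays left out. Acute T3 gave 1 with median scaling and 0 to 1 with single arrays left out, T3 withdrawal against baseline B 0 throughout those, and the baselines 0 to 1, and 1 with no background correction, normexp, median scaling, the authors' values, the mean of probes and trend with robust moderation. Cyp2c55 reversed without both dim arrays, to -1.70 in T3 withdrawal against chronic T3 (adjusted p = 0.00787) and 1.83 in the difference (adjusted p = 0.0189); the cause was not tested.

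Over all genes, acute T3 gave 297 with no background correction, 123 with median scaling, 295 with the authors' values, 109 with no filter, 288 with trend and robust moderation, 65 with array weights, 41 at 0.01, 93 with only the groups compared and 48 to 164 with single arrays left out. Chronic T3 gave 888 with median scaling, 978 at 0.01, 898 with only the groups compared and 1376 to 1995. T3 withdrawal against baseline B gave 3 with array weights, 0 with only the groups compared and 1 to 4. T3 withdrawal against chronic T3 gave 706 at 0.01, 802 with only the groups compared and 1030 to 1460. The difference gave 234 with median scaling, 167 at 0.01 and 311 to 916. The baselines gave 501 with no filter, 79 with array weights, 107 at 0.01, 185 with only the groups compared and 128 to 1717. The causes were not tested. With the replicate block 21, 13 and 9 P450 genes were called after chronic T3, in T3 withdrawal against chronic T3 and in the difference, and 0 elsewhere. Median scaling moved the median of all genes to 0.14 in acute T3 and to -0.11 in the difference. Median scaling brought it to 0.40 and 0.36 in T3 withdrawal against baseline B and against chronic T3, and to -0.35 between baselines. Under it 17 P450 genes fell and 0 rose after chronic T3, and the share of calls over all genes that were higher was 91.9% for acute T3 (69.5% as reported), 86.4% for T3 withdrawal against chronic T3 (51.5%), 36.3% for the difference (53.5%) and 5.16% between baselines (31.3%). Array signal has no read depth, and 40 P450 genes near background have no measured direction.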
